A study of Homo sapiens with 6 samples.

Results

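The clustered protocadherins are cell surface proteins of the cadherin superfamily that are encoded by tandem gene arrays on the long arm of chromosome 5. The members were chosen by name, as the protein-coding genes whose symbol begins with PCDHA, PCDHB or PCDHG, and 53 of the 58174 genes in the expression table met that rule. They comprised 15 alpha genes (PCDHA), 16 beta genes (PCDHB) and 22 gamma genes (PCDHG). On GRCh37, the alpha array lies at chr5:140165721-140391932, the beta array at chr5:140430959-140628933 and the gamma array at chr5:140710081-140892544, and all members lie on the plus strand within 727 kb.

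The RNA libraries came from AGS, a gastric adenocarcinoma line, and the design asks which transcripts differ once FTO, an enzyme that removes methyl groups from m6A in RNA, is reduced. There were 3 libraries of cells given the negative control siRNA, called si-NC, and 3 of cells given FTO siRNA, called si-FTO, all prepared from total RNA with a stranded kit. In the genotype field, the si-NC libraries are given as wild type and the si-FTO libraries as FTO-/-, although the methods describe siRNA, and the names si-NC and si-FTO are used here. Expression was deposited as TPM, a share of all transcripts that is corrected for transcript length, as 1 mean per group. These means hold no error between libraries, so no test was made here, and each value below is the authors' mean for the group. The p-values and q-values that the authors deposited beside them were not used. FTO itself, located on chromosome 16, was at 33.1 TPM in si-NC compared with 7.27 TPM in si-FTO, which was 4.56-fold lower in the depleted group. The targeted gene thus differed in the direction that the labels give.

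The labelled cell type was then compared with a list of 30 gastric and intestinal epithelial markers. The list summed to 187 TPM in si-NC against 5403 TPM in si-FTO, with 7 markers listed at 0 in si-NC and 8 in si-FTO. KRT18, a keratin of simple epithelia, was the most abundant marker in si-NC at 52.1 TPM, and it was at 1851 TPM in si-FTO. Its partner KRT8 was the most abundant in si-FTO, at 3139 TPM against 10.8 TPM in si-NC. KRT7, another keratin, was listed at 0 in si-NC but was at 253 TPM in si-FTO. The epithelial transcription factor ELF3 was at 0.115 TPM in si-NC against 93.3 TPM in si-FTO, the mucin MUC1 at 1.71 TPM against 31.04 TPM, and the claudin CLDN7 at 1.17 TPM against 14.8 TPM. KRT19 and KRT20 were listed at 0 in si-NC and were at 0.130 and 0.115 TPM in si-FTO, and TFF1, TFF3 and VIL1 were listed at 0 in both groups. The epithelial adhesion molecule EPCAM was at only 1.22 TPM in si-NC versus 0.113 TPM in si-FTO. GATA4, a transcription factor of the foregut, was at 36.96 TPM in si-NC but listed at 0 in si-FTO. CDX2 was at 18.1 TPM in si-NC but listed at 0 in si-FTO, and GATA6 was at 20.3 TPM against 2.54 TPM. SPINT2 was at 38.2 TPM in si-NC against 7.99 TPM in si-FTO, and CDH1 at 3.67 TPM against 0.685 TPM. By the threshold given below, 5 of the 16 markers compared were lower and 9 were higher. Some epithelial markers were thus at or near 0 in each group, others were far higher in si-FTO and others were far lower. The 2 groups differed widely in which epithelial genes they expressed. Whether both groups are the same cell line was not tested, and with these means a difference between the cells of the groups and an effect of FTO depletion cannot be told apart. The libraries are called by their labels throughout, and each difference given is one between the libraries labelled si-NC and si-FTO.

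In the alpha and gamma arrays, each gene begins with a large exon of its own, which encodes the extracellular cadherin repeats, the transmembrane segment and the start of the cytoplasmic tail, and this exon is spliced to constant exons at the end of the array. Beta genes have no such constant exons. The proteins are best known in neurons, where promoter choice gives each cell its own combination of isoforms and homophilic binding lets a neurite recognise itself. The C-type genes at the ends of the alpha and gamma arrays are less subject to that choice. The promoters share a conserved sequence element, are bound by CTCF and cohesin and can be silenced by DNA methylation.

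The gamma array was the array with a sizeable signal in si-NC, and its level was far lower in si-FTO. The 22 gamma genes summed to 27.6 TPM in si-NC compared with 1.02 TPM in si-FTO, which was 27.0-fold lower. The 15 alpha genes summed to 0.313 TPM in si-NC against 0.0147 TPM in si-FTO. The 16 beta genes summed to 0.673 TPM in si-NC versus 0.770 TPM in si-FTO. The alpha array was thus barely detected in either group, and the beta array was low in both with nearly equal sums. In bulk RNA, fewer cells that express these genes and less RNA per cell cannot be told apart.

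**Figure D1:**
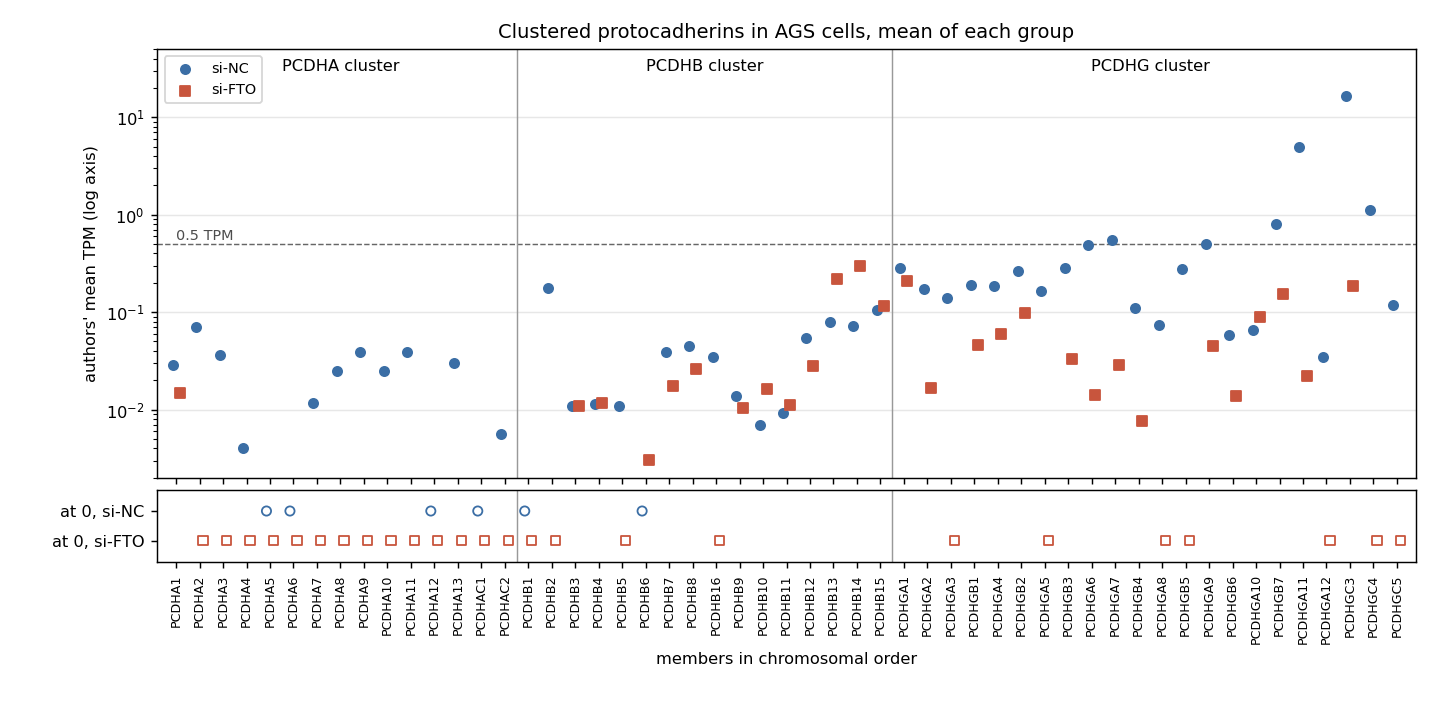
Mean TPM of the 53 members in si-NC (circles) and si-FTO (squares), in chromosomal order on a log axis, with members listed at 0 as open symbols in the lower strip. The gamma genes reach 16.7 TPM in si-NC, while no member exceeds 0.301 TPM in si-FTO.

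Members were counted as lower or higher when the log2 ratio of mean TPM, si-FTO over si-NC with a pseudocount of 1, was at least 1 in size. The genes compared were those with a mean of at least 0.5 TPM in at least 1 group. That minimum was reached by 5 of the 53 members, all of them gamma genes and all of them in si-NC only. Of these 5, 3 were lower past the threshold and 0 were higher, where 17.0% of the 20493 genes compared were lower and 11.4% were higher. Over the whole table without the minimum, 3 of 53 members and 6.003% of the 58174 genes were lower past the threshold. Because the 5 members passed through the group in which they were high, their count carries no weight as support. The smallest level inside the minimum was that of PCDHGA7, at 0.544 TPM in si-NC compared with 0.0288 TPM in si-FTO. Just outside it were PCDHGA9, with 0.496 TPM in si-NC against 0.0454 TPM in si-FTO, and PCDHGA6, with 0.489 TPM in si-NC versus 0.0142 TPM in si-FTO. The threshold thus parted genes with nearly the same values.

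Without any minimum, 40 of the 48 members above 0 in at least 1 group were lower in si-FTO by some amount and 8 were higher. Over all genes above 0 in at least 1 group, 60.0% were lower in si-FTO. The arrays differed in this respect. In the gamma array 21 genes were lower and 1 was higher, a split that was again 21 and 1 after median-ratio scaling and became 20 and 2 after quantile normalization. Of the 11 alpha genes above 0, 11 were lower and 0 higher, again 11 and 0 after median-ratio scaling, and 10 and 1 after quantile normalization, where PCDHA1 was the higher gene. Of the 15 beta genes above 0, 8 were lower and 7 higher, which became 7 and 8 after median-ratio scaling, as PCDHB3 lay at nearly equal levels, and 3 and 12 after quantile normalization. The beta genes thus had no direction that held in all of these settings, as most were lower by count as deposited and most were higher under either scaling. Of the genes counted, 10 of the 11 alpha genes and 7 of the 22 gamma genes were above 0 in si-NC only, so that lower was the only direction they could take as deposited, and their number carries no weight as support. Among the 15 gamma genes above 0 in both groups, 14 were lower and 1 was higher. The 60.0% above is for genes above 0 in at least 1 group. The matching share over all genes above 0 in both groups is not given here, nor are the shares after either scaling. How far these splits differ from the whole table therefore cannot be read from them.

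Reads from the constant exons cannot be assigned to 1 gene by sequence alone, so the size of the shared part was measured. All 22 gamma genes shared exonic bases with other members, with a median of 43.8% of their exonic length and a range from 27.5% to 64.4%. All 15 alpha genes did so as well, with a median of 46.6%, whereas 0 of 16 beta genes shared any. How the counting model divided such reads among members is unknown, so the cluster sums are given beside the single genes. Because TPM is per length and exonic lengths ran from 4772 to 8657 bases in gamma genes and from 5236 to 15664 bases in alpha genes, that division can also move the sums. On GRCh37, the gamma genes share exons of 59 bases at chr5:140874374-140874432 and 89 bases at chr5:140884960-140885048, and a last exon of 2029 bases at chr5:140890514-140892542. The alpha genes share exons of the same 59 and 89 bases in length, at chr5:140358534-140358592 and chr5:140362060-140362148. The short exons of both arrays are shown on the plus strand because every spliced gene of an array carries them.
gamma exon of 59 bases: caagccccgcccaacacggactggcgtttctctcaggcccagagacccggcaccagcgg
gamma exon of 89 bases: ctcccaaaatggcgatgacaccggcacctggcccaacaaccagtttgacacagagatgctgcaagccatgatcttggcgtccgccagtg
alpha exon of 59 bases: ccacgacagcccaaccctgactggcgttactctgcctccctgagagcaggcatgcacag
alpha exon of 89 bases: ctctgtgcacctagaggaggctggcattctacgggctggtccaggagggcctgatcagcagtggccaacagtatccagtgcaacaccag

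Within the gamma array, most of the signal in si-NC came from PCDHGC3, a C-type gene that is also expressed outside the nervous system. PCDHGC3 was at 16.7 TPM in si-NC compared with 0.188 TPM in si-FTO, with the log2 ratio at -3.90 and an 89.1-fold lower level. PCDHGA11, the second most abundant member, was at 5.003 TPM in si-NC against 0.0220 TPM in si-FTO, with the log2 ratio at -2.55 and a 227-fold lower level. Ordered by log2 ratio from the most negative, PCDHGC3 stood at rank 239 and PCDHGA11 at rank 790 of the 20493 genes compared. On this scale both ratios thus lay toward the low end of the table without being at its extreme. The pseudocount limits how negative a ratio can be at a given si-NC level, so these ranks partly reflect those levels. With a pseudocount of 0.1 the log2 ratios were -5.87 for PCDHGC3 and -5.39 for PCDHGA11.

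PCDHGC4, the next C-type gene of the array, was at 1.12 TPM in si-NC but listed at 0 in si-FTO. It was the remaining member past the threshold, and it no longer passed after quantile normalization, with a log2 ratio of -0.95. PCDHGB7 was at 0.812 TPM in si-NC versus 0.154 TPM in si-FTO, which was 5.28-fold lower but did not reach the threshold on the pseudocount scale. PCDHGC5, the last C-type gene, was at 0.119 TPM in si-NC but listed at 0 in si-FTO. All C-type gamma genes were therefore above 0 in si-NC, and only PCDHGC3 was above 0 in si-FTO.

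The promoters of the leading members are shown because these genes have separate start sites and were lower together. RefSeq sequences on GRCh38.p14 cover 250 bases before and 50 bases after each start, and they were available for 47 of the 53 members. No entry was matched for PCDHA3, PCDHA13, PCDHB6, PCDHB11, PCDHGA12 and PCDHGC5. The promoter of PCDHGC3 lies at chr5:141475716-141476015 and that of PCDHGA11 at chr5:141420801-141421100, both on the plus strand. Capitals mark CGCT, the core of the conserved protocadherin promoter element, or AGCG where it lies on the opposite strand. The PCDHGC3 promoter holds 6 such matches and 18 CpG dinucleotides, and the PCDHGA11 promoter holds 3 matches and 12 CpG dinucleotides.
PCDHGC3 promoter: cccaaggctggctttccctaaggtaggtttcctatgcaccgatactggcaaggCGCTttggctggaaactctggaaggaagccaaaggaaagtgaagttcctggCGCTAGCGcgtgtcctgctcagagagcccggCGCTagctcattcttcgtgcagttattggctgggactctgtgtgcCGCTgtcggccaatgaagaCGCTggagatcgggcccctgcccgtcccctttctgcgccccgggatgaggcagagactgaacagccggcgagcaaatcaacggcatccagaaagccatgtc
PCDHGA11 promoter: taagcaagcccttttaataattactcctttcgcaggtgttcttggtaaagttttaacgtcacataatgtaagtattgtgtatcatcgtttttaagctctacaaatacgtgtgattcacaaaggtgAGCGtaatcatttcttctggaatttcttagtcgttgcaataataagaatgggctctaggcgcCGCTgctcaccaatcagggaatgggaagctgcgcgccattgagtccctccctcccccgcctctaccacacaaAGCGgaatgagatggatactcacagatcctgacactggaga

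CGCT, read on both strands, was found in the promoters of 46 of the 47 members, PCDHA9 being the exception. It was also found in 70.0% of all 35116 promoters, since a word of 4 letters is common. To describe the element more closely, the 8-letter word shared by most promoters of each array was taken, so its frequency within that array is what chose it. That word was ATGTCGCT for the alpha array, GTGGCGCT for the beta array and GCCGCTGT for the gamma array, and CGCT lies within each of them. On either strand, the alpha word was found in 9 of 13 alpha genes with a promoter and 0.234% of all promoters. The beta word was found in 13 of 14 beta genes and 1.15% of all promoters, and the gamma word in 11 of 20 gamma genes and 1.63% of all promoters. None of these words was found in the promoter of a member of another array. The matches in members were all on the strand of the gene, with median distances from the start of -52, -65 and -70 bases for alpha, beta and gamma.

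**Figure D2:**
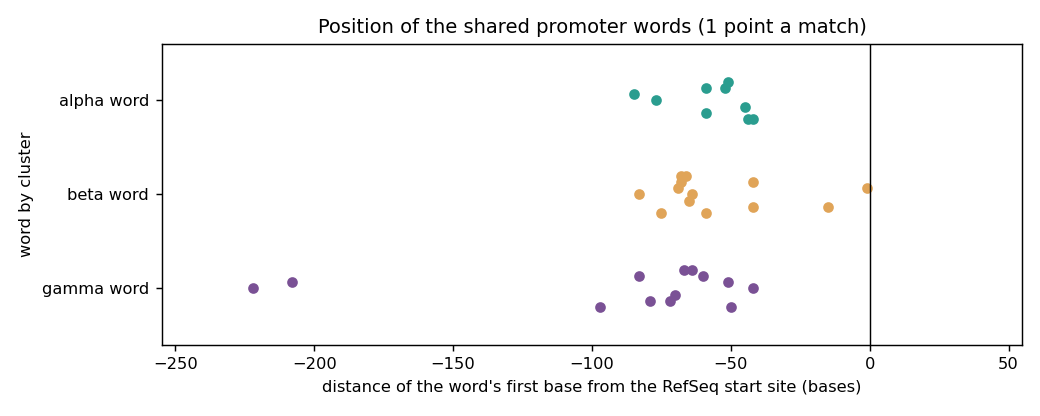
Distance in bases from the RefSeq start site to the first base of the 8-letter word of each protocadherin array, 1 point for each match (9 alpha, 13 beta, 13 gamma). The median distances are -52, -65 and -70 bases, and the points at -222 and -208 bases belong to further start sites of PCDHGB1 and PCDHGC4.

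The gamma word was present in promoters of PCDHGC3, PCDHGC4 and PCDHGA7 but not in those of PCDHGA11 or PCDHGB7. When 1 letter was allowed to differ, a match on either strand was found in 20 of 20 gamma genes, 5 of 13 alpha genes, 2 of 14 beta genes and 30.6% of all promoters. This search was added after the exact matches were seen. Stretches of 30 bases around the word are shown for the 5 gamma genes above the minimum, together with the most abundant alpha gene in si-NC and the most abundant beta gene in si-FTO, on the plus strand of GRCh38.p14. Capitals mark the word, which differs from the gamma word in 1 letter in PCDHGA11 and PCDHGB7. In PCDHGA11 that letter lies outside CGCT. In PCDHGB7 it lies within CGCT, so the stretch shown holds no CGCT, and the 2 matches of that promoter lie elsewhere in it.
PCDHGC3 chr5:141475883-141475912: ggactctgtgtGCCGCTGTcggccaatgaa
PCDHGA11 chr5:141420975-141421004: gggctctaggcGCCGCTGCtcaccaatcag
PCDHGC4 chr5:141484955-141484984: tgagcccgggaGCCGCTGTctgccaatcgg
PCDHGB7 chr5:141417586-141417615: agcctctgggcGCCGCCGTcggccagtgca
PCDHGA7 chr5:141382652-141382681: ggactcacagcGCCGCTGTtcaccaaccag
PCDHA2 chr5:140794782-140794811: ttagccacatgATGTCGCTgtccaccatag
PCDHB14 chr5:141223264-141223293: ggagacacatgGTGGCGCTacaggataaga

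The exact word thus did not separate the gamma genes above the minimum from the others. It was present in PCDHGA10, the 1 gamma gene that was higher in si-FTO, at 0.0899 TPM against 0.0653 TPM in si-NC, and this direction was the same under both scalings. It was also present in PCDHGA1, the first gene of the array, which was at 0.283 TPM in si-NC compared with 0.207 TPM in si-FTO. PCDHGA1 was the most abundant gamma gene in si-FTO, and its log2 ratio of -0.09 turned to 0.04 after quantile normalization. Over the 22 gamma genes, levels ran from 0.0346 to 16.7 TPM in si-NC with a median of 0.226 TPM, and from 0 to 0.207 TPM in si-FTO with a median of 0.0193 TPM. At least 0.1 TPM was reached by 18 gamma genes in si-NC and by 3 in si-FTO, namely PCDHGA1, PCDHGC3 and PCDHGB7. The share of all genes at 0.1 TPM or more is not given here. The gamma genes listed at 0 numbered 0 in si-NC and 7 in si-FTO, beside 46.1% and 50.8% of all genes. Lower values were thus listed along the array, although the abundant members lay in its final part. Because reads of the constant exons may be divided among members, whether each gene was lower on its own cannot be told.

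The make-up of the gamma sum also differed between groups. PCDHGC3 held 60.6% of the sum in si-NC but 18.3% in si-FTO, and PCDHGA11 held 18.1% in si-NC but 2.15% in si-FTO. PCDHGA1 held 1.03% of the sum in si-NC and 20.2% in si-FTO. In si-NC the sum was thus dominated by a pair of genes, and in si-FTO no gene dominated it. Without PCDHGC3 the array summed to 10.9 TPM in si-NC against 0.836 TPM in si-FTO, so the log2 ratio was -2.69 in place of -3.82. Without PCDHGC3 and PCDHGA11 the other 20 genes summed to 5.87 TPM in si-NC versus 0.814 TPM in si-FTO, which was still 7.21-fold lower. By subfamily, the 12 A-type genes summed to 7.65 and 0.483 TPM, the 7 B-type genes to 1.99 and 0.352 TPM and the 3 C-type genes to 17.95 and 0.188 TPM in si-NC and si-FTO. Each gamma subfamily sum was therefore lower in si-FTO, the B-type genes by the smallest factor. These part sums are not independent of PCDHGC3 and PCDHGA11, as reads of the constant exons may be divided among members. On the log2 scale with the pseudocount, the median over all 22 gamma genes was -0.20. It was -0.18 after median-ratio scaling and -0.14 after quantile normalization. Over the 20493 genes compared the median was -0.20, and -0.05 and -0.03 after those scalings. The sets are unlike, as only 5 gamma genes reached the minimum. Over the whole table without the minimum the median was 0, with 40.7% of genes listed at 0 in both groups. Most gamma genes were too low for that scale to show a large ratio.

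**Figure D3:**
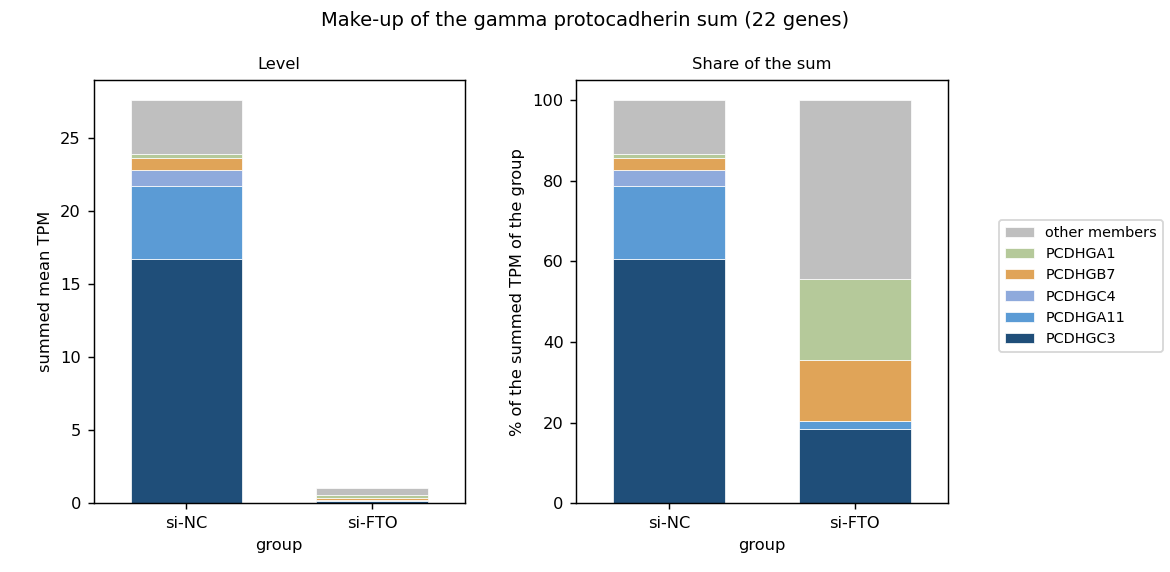
Mean TPM of the 22 gamma protocadherins stacked by gene (left) and each gene's percentage of the group's sum (right) in si-NC and si-FTO. The sum is 27.6 TPM in si-NC compared with 1.02 TPM in si-FTO, and PCDHGC3 holds 60.6% and 18.3% of it.

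In the alpha array, no gene exceeded 0.0696 TPM in either group. That highest value belonged to PCDHA2 in si-NC, and PCDHA2 was listed at 0 in si-FTO. PCDHA9, PCDHA11, PCDHA3 and PCDHA13 followed, at 0.0394, 0.0388, 0.0359 and 0.0298 TPM in si-NC, and all were listed at 0 in si-FTO. PCDHA1, at the start of the array, was the only alpha gene above 0 in si-FTO, at 0.0147 TPM against 0.0289 TPM in si-NC. Among the C-type genes, PCDHAC1 was listed at 0 in both groups, and PCDHAC2 was at 0.00558 TPM in si-NC but listed at 0 in si-FTO. PCDHA5, PCDHA6 and PCDHA12 were also listed at 0 in both groups. The alpha genes above 0 thus numbered 11 in si-NC and 1 in si-FTO. Those listed at 0 numbered 4 and 14 of 15, beside 46.1% and 50.8% of all genes. TPM does not keep the number of reads, so how many reads lie behind such levels is unknown and an absence of the transcripts cannot be stated.

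The beta genes, which share no exon, showed no common direction as deposited. PCDHB2 was the highest beta gene in si-NC, at 0.179 TPM, and was listed at 0 in si-FTO. PCDHB16 was at 0.0348 TPM in si-NC but was listed at 0 in si-FTO as well. PCDHB12 was at 0.0542 TPM in si-NC against 0.0282 TPM in si-FTO. Levels in the other direction were found near the end of the array, where PCDHB14 was at 0.0728 TPM in si-NC versus 0.301 TPM in si-FTO, 4.14-fold higher. Its neighbour PCDHB13 was at 0.0799 TPM in si-NC compared with 0.218 TPM in si-FTO, 2.73-fold higher. Both were higher in si-FTO under each scaling, and PCDHB14 was the most abundant of all 53 members in si-FTO. PCDHB15, the next gene, was at 0.106 TPM in si-NC against 0.115 TPM in si-FTO. Without PCDHB14 the log2 ratio of the beta sum turned from 0.08 to -0.12, so the direction of the sum rested on that gene. PCDHB7 was at 0.0388 and 0.0175 TPM, and PCDHB8 at 0.0450 and 0.0259 TPM, in si-NC and si-FTO. PCDHB10 was at 0.00690 TPM in si-NC versus 0.0164 TPM in si-FTO, and PCDHB6 was listed at 0 in si-NC and was at 0.00307 TPM in si-FTO. PCDHB1 was listed at 0 in both groups. None of the beta genes reached the minimum for comparison.

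Genes in and between the arrays that are not protein-coding were low as well. Of 28 such genes, 20 were listed at 0 in both groups, beside 40.7% of all genes, and 5 more in si-FTO only. The highest level in either group was 0.141 TPM. The gamma pseudogene PCDHGB8P was at 0.103 TPM in si-NC but listed at 0 in si-FTO.

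The protein-coding genes next to the arrays were examined to see how far along the chromosome the difference extended. The 22 neighbours were the 10 nearest genes on each side and the 2 genes between the arrays. Of the 20 compared, 3 were lower, 1 was higher and 16 were neither, beside 17.0% lower and 11.4% higher over all genes compared. After quantile normalization 2 of the neighbours were lower, beside 14.1% of all genes compared. The neighbours' median log2 ratio was -0.14, but it turned to 0.03 after median-ratio scaling. By any amount, 10 were then lower and 11 higher instead of 14 and 7. ZMAT2, a splicing factor gene that lies nearest before the alpha array, was at 96.6 TPM in si-NC against 89.0 TPM in si-FTO. TAF7, a subunit of the general transcription factor TFIID encoded between the beta and gamma arrays, was at 73.1 TPM in si-NC versus 73.4 TPM in si-FTO. SLC25A2, the other gene there, was listed at 0 in both groups. DIAPH1, an actin-nucleating formin gene that lies nearest after the gamma array, was at 136 TPM in both groups. The genes directly flanking the gamma array were thus at nearly equal levels in both groups, and they were expressed at far higher levels per length than the array itself.

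On the side of the alpha array 0 of 10 genes were past the threshold in either direction, with the median log2 ratio at -0.12 and at 0.05 after median-ratio scaling. On the gamma side, 3 of the 9 genes compared were lower and 1 was higher, beside 17.0% and 11.4% of all genes compared. The median log2 ratio on that side was -0.87. RNF14, encoding a ubiquitin ligase, had the lowest ratio, with 39.0 TPM in si-NC compared with 13.5 TPM in si-FTO. RELL2 was at 10.9 TPM in si-NC against 3.69 TPM in si-FTO, and the non-clustered protocadherin PCDH1 was at 3.49 TPM in si-NC versus 0.984 TPM in si-FTO. ARAP3, encoding a GTPase-activating protein, was higher, at 3.67 TPM in si-NC compared with 9.93 TPM in si-FTO. HDAC3, a histone deacetylase gene close to the gamma array, was at 118 TPM in si-NC against 61.8 TPM in si-FTO, short of the threshold. The log2 ratios of the neighbours compared ran from -1.46 to 1.23, so none was as low as that of the gamma sum.

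**Figure D4:**
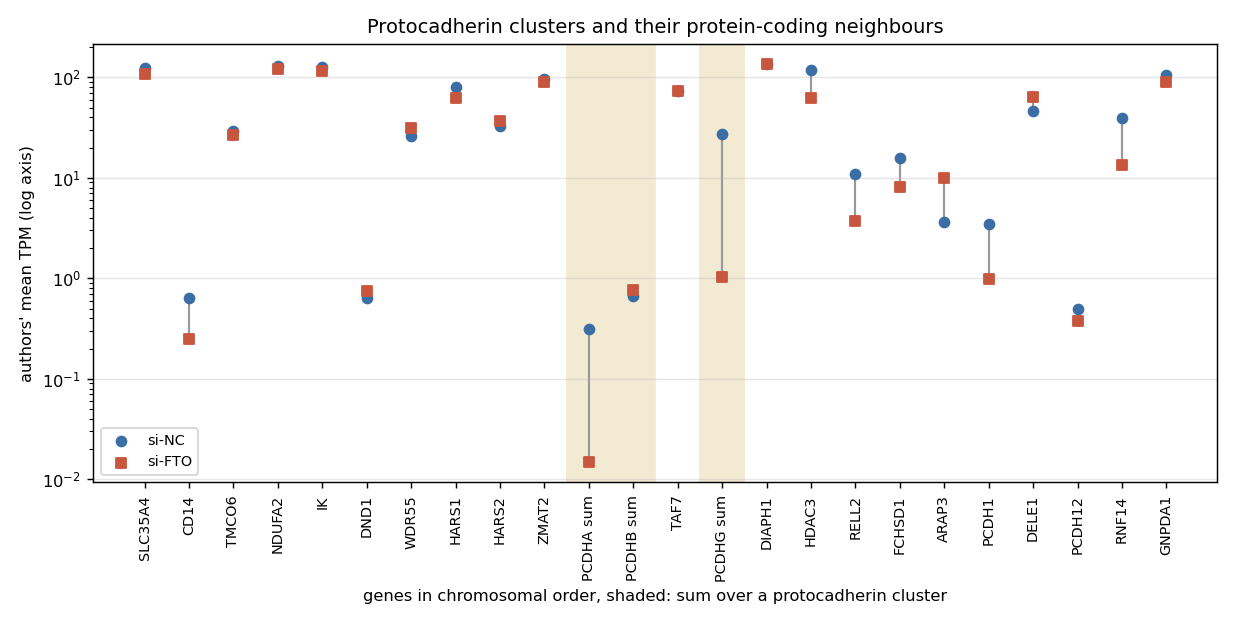
Mean TPM in si-NC (circles) and si-FTO (squares) of the protein-coding neighbours above 0 and of the summed alpha, beta and gamma arrays (shaded), in chromosomal order on a log axis. TAF7 and DIAPH1, on both sides of the gamma array, are at nearly equal levels in the groups, whereas the gamma sum is 27.6 TPM in si-NC versus 1.02 TPM in si-FTO.

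Other protocadherins, which are encoded by single genes outside the arrays, were mostly lower in si-FTO as well. All 12 listed non-clustered protocadherins were lower by some amount, beside 60.0% of all genes above 0, or 11 of 12 after quantile normalization. Of these 12, 7 were above 0 in si-NC only, so that lower was the only direction they could take as deposited. The number lower by some amount therefore carries no weight as support. Of the 9 compared, 8 were lower past the threshold, with 7 after median-ratio scaling and 6 after quantile normalization, beside 17.0%, 14.6% and 14.1% of all genes compared, and 7 of the 9 had passed the minimum in si-NC only. The list summed to 68.5 TPM in si-NC compared with 8.52 TPM in si-FTO, with a median log2 ratio of -2.06. PCDH10, a delta protocadherin, was the most abundant in si-NC at 22.5 TPM and was listed at 0 in si-FTO. PCDH7 was at 16.0 TPM in si-NC and was the most abundant in si-FTO at 7.16 TPM. PCDH8 was the compared gene with the ratio closest to 0, at 0.952 TPM in si-NC but listed at 0 in si-FTO. As for the clustered genes, the count and median over genes that passed mainly through si-NC carry no weight as support.

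Of 32 other cadherins, 22 were compared, and 11 were lower, 2 were higher and 9 were neither. Over all genes compared, 17.0% were lower and 11.4% were higher. The median log2 ratio was -0.95 for the cadherins and -0.20 for all genes compared. Of the 22 cadherins compared, 13 had passed the minimum in si-NC only and 1 in si-FTO only. The count and the median are thus partly set by the minimum. With median-ratio scaling 21 were compared, of which 9 were lower and 3 higher, beside 14.6% and 13.2% of all genes compared. With quantile normalization 21 were also compared, and 7 were lower and 2 higher, beside 14.1% and 13.6%. CDH2, the N-cadherin gene, was the most abundant in si-NC, at 53.7 TPM against 1.25 TPM in si-FTO. CDH5, the endothelial VE-cadherin gene, was at 0.00827 TPM in si-NC against 40.9 TPM in si-FTO. CELSR3, an atypical cadherin gene, was the other higher gene, at 3.27 TPM in si-NC versus 11.9 TPM in si-FTO. The summed level was nearly equal, at 176 TPM in si-NC compared with 169 TPM in si-FTO, although the most abundant gene was CDH2 in si-NC and CDH5 in si-FTO.

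Genes that act on these promoters were examined next. All 14 listed genes of CTCF and the cohesin complex, which loop enhancers to the chosen protocadherin promoters, were compared. Of these, 0 were lower, 2 were higher and 12 were neither, also under both scalings. Beside them, 17.0% of all genes compared were lower and 11.4% higher. Those shares were 14.6% and 13.2% after median-ratio scaling, and 14.1% and 13.6% after quantile normalization. CTCF itself was at 58.2 TPM in si-NC against 41.6 TPM in si-FTO. RAD21, the cohesin kleisin subunit, was at 135 TPM in si-NC versus 288 TPM in si-FTO, and the loader NIPBL was at 12.5 TPM in si-NC compared with 27.2 TPM in si-FTO. PDS5A, a cohesin regulator, had the lowest ratio, at 62.7 TPM in si-NC against 39.4 TPM in si-FTO. SMC1A, a core cohesin subunit, was the most abundant in si-NC, at 239 TPM against 190.4 TPM in si-FTO. Both groups therefore expressed every listed gene of this machinery, and the list's median log2 ratio was -0.14, which turned to 0.04 after median-ratio scaling.

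Among 17 genes of DNA methylation and silencing, 2 were lower, 1 was higher and 14 were neither, also under both scalings. The shares over all genes compared were 17.0% lower and 11.4% higher. They were 14.6% and 13.2% after median-ratio scaling, and 14.1% and 13.6% after quantile normalization. The list's median log2 ratio was 0.08. TET1, a dioxygenase that oxidises methylcytosine, was at 8.80 TPM in si-NC versus 0.0257 TPM in si-FTO. The de novo methyltransferase gene DNMT3B was at 34.5 TPM in si-NC compared with 12.1 TPM in si-FTO, whereas its relative DNMT3A was at 9.77 TPM in si-NC against 20.9 TPM in si-FTO. SMCHD1, a chromatin protein known to silence clustered protocadherins, was at 16.2 TPM in si-NC versus 23.7 TPM in si-FTO, short of the threshold. TRIM28, a corepressor, was the most abundant gene of the list, at 429.7 TPM in si-NC compared with 411 TPM in si-FTO. Methylation of the arrays was not measured in these libraries, and the part of these genes in the result was not tested.

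Clustered protocadherins are cut by ADAM10 and gamma-secretase, and their cytoplasmic tails bind kinases and the WAVE complex of actin regulators. Of 22 such genes, 5 were lower, 1 was higher and 16 were neither, or 5, 2 and 15 after either scaling. The shares over all genes compared were 17.0% lower and 11.4% higher. They were 14.6% and 13.2% after median-ratio scaling, and 14.1% and 13.6% after quantile normalization. The list's median log2 ratio was 0.09. The WAVE subunit gene WASF3 was at 15.2 TPM in si-NC but listed at 0 in si-FTO, and WASF1 was at 81.2 TPM in si-NC against 27.4 TPM in si-FTO. CYFIP2, which binds the tails within the WAVE complex, was at 56.8 TPM in si-NC versus 4.86 TPM in si-FTO. The receptor tyrosine kinase gene RET was at 2.17 TPM in si-NC compared with 0.00880 TPM in si-FTO, and the kinase substrate MARCKS was at 82.9 TPM in si-NC against 29.4 TPM in si-FTO. APH1B, a gamma-secretase subunit, was the higher gene, at 4.44 TPM in si-NC versus 11.7 TPM in si-FTO. BRK1, a small WAVE subunit, was the most abundant, at 195 TPM in si-NC compared with 164 TPM in si-FTO. The paralogs WASF2 and CYFIP1 were expressed in both groups, at 59.4 and 57.8 TPM in si-NC and at 75.1 and 76.8 TPM in si-FTO, so other members of these gene families were still present.

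**Figure D5:**
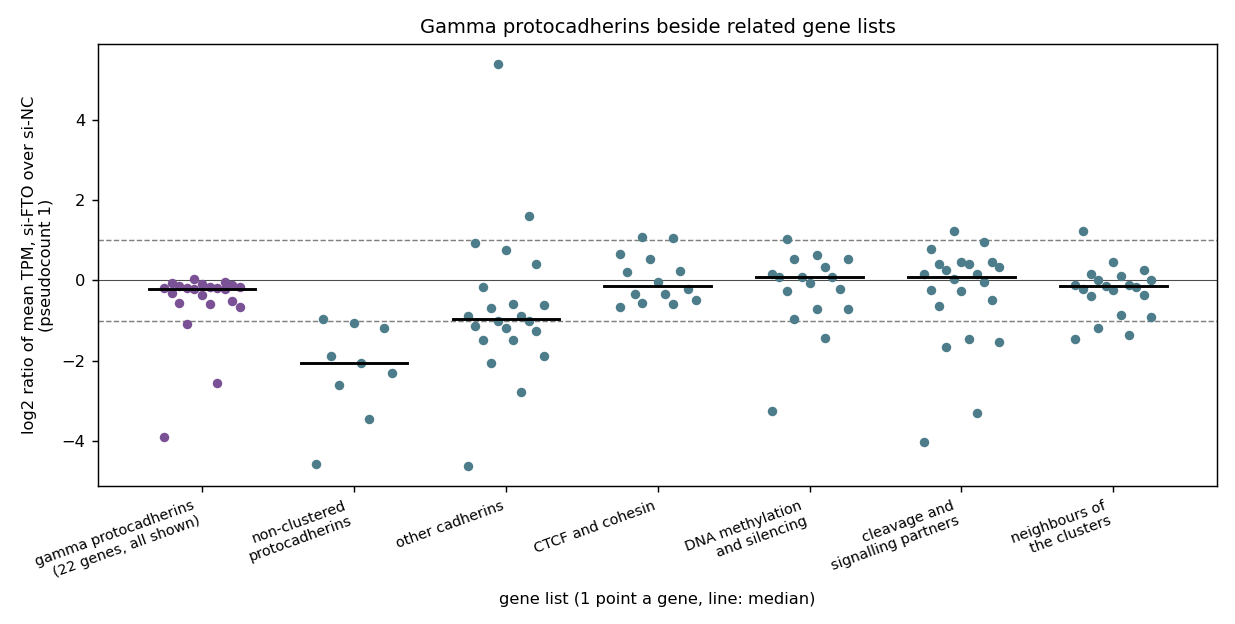
Log2 ratio of mean TPM (si-FTO over si-NC, pseudocount 1) of the 22 gamma protocadherins and of the compared genes of 6 other lists, 1 point for each gene, with the median as a line and the threshold of 1 in size dashed. The median is -2.06 for non-clustered protocadherins and -0.14 for CTCF and cohesin.

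Markers of other cell types differed between the groups together with the protocadherins. The 15 neuronal and neuroendocrine markers summed to 459 TPM in si-NC against 17.3 TPM in si-FTO, with 2 listed at 0 in si-NC and 8 in si-FTO. Of the 11 compared, 7 were lower, 1 was higher and 3 were neither, beside 17.0% lower and 11.4% higher over all genes compared. The list's median log2 ratio was -2.59, and 7 of the 11 had passed the minimum in si-NC only. UCHL1, a neuronal ubiquitin hydrolase, was the most abundant in si-NC, at 303 TPM against 0.0204 TPM in si-FTO. SNAP25, a synaptic fusion protein, was the higher gene, at 0.316 TPM in si-NC versus 9.72 TPM in si-FTO. The defining markers STMN2 and DCX were listed at 0 in both groups. Several neuronal genes were thus present in si-NC beside the gamma protocadherins, without the full set of neuronal markers, and their part in the result was not tested.

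The epithelial list described above had 16 genes compared, of which 5 were lower, 9 were higher and 2 were neither. The shares over all genes compared were 17.0% lower and 11.4% higher. The epithelial median log2 ratio was 1.31, and 3 of the 16 had passed the minimum in si-NC only and 5 in si-FTO only. The 11 mesenchymal markers summed to 687 TPM in si-NC compared with 843 TPM in si-FTO, with 0 listed at 0 in si-NC and 1, COL1A2, in si-FTO. Of the 9 compared, 5 were lower and 2 were higher, with 4 lower after either scaling. Beside them, 17.0% of all genes compared were lower and 11.4% higher. The share lower was 14.6% after median-ratio scaling and 14.1% after quantile normalization. The mesenchymal median log2 ratio was -1.15. VIM, encoding the filament protein vimentin, was the most abundant in both groups, at 439.9 TPM in si-NC against 752 TPM in si-FTO. PDGFRB, a receptor of mesenchymal cells, had the highest ratio, at 0.370 TPM in si-NC versus 5.34 TPM in si-FTO. The mesenchymal markers thus differed in both directions.

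Among leukocyte markers, the defining marker PTPRC was listed at 0 in both groups. CD68, a macrophage marker, was the most abundant of them in si-FTO, at 6.42 TPM against 1.49 TPM in si-NC. The 4 endothelial markers found of 5 listed summed to 0.420 TPM in si-NC against 41.0 TPM in si-FTO, nearly all of the si-FTO level from CDH5, which was the 1 marker compared and was higher. KDR, the highest of them in si-NC at 0.401 TPM, was listed at 0 in si-FTO. The part of these marker lists in the protocadherin result was not tested. CDH1 and CDH17 of the epithelial list, CDH2 of the mesenchymal list and CDH5 of the endothelial list are also among the other cadherins, and PCDH1 and PCDH12 are also neighbours of the arrays.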

How the data were processed

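According to their methods, the authors mapped reads to hg19 with Bowtie and estimated expression with RSEM, whereas the submitters' processing notes list HISAT2 and hg19. The annotation is not given in the sources used here, nor is whether counting used the strand of the KAPA stranded libraries. TPM was deposited by the authors as the mean of the 3 libraries in each group, together with their own log2 ratio, p-value and q-value columns, which were not used. A second deposited table was not used. TPM keeps no depth, so the depth of each library and the precision it gives are unknown. 0 columns of values could not be mapped to a group.

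A value of 0.0001 TPM was read as 0 and described as listed at 0, which applied to 26830 genes in si-NC and 29534 in si-FTO. Symbols were matched for 55726 of 58174 Ensembl identifiers. Log2 ratios are of mean TPM, si-FTO over si-NC, with a pseudocount of 1, which understates differences of low genes. Genes with at least 0.5 TPM in at least 1 group were compared, and those whose log2 ratio was 1 or more in size counted as lower or higher. With 1 mean per group no test was made. Coordinates and exon sharing come from GENCODE release 44 lifted to GRCh37, and promoters from RefSeq on GRCh38.p14.

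Named in the text are, for each array, the 5 members with the largest difference in each direction, the 3 highest in each group and all C-type genes. For each other list they are the members with the lowest and highest ratio and the highest level in each group. Members singled out in small counts, CTCF, SMCHD1, EPCAM, HDAC3, PCDHGA9, PCDHGA6 and other marker genes beyond that rule were picked once their values had been seen. The counts and sum of the leukocyte list, and a marker in it, are not reported here. The members and lists were chosen with earlier results of these data known. The alternatives were another pseudocount, minimum and fold, median-ratio scaling, quantile normalization and sums without the most abundant member. Python 3.11.15 with numpy 2.4.6, pandas 2.3.3 and matplotlib 3.10.9 was used. The calling rule and both scalings were tested on simulated data, with changes placed in genes of at least 10 TPM. Calls at the low levels of most members, the sums and the sequence counts were not simulated.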

Additional observations from a re-analysis of the deposited data

How the results depend on the processing

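The count of 3 lower members became 5 with a pseudocount of 0.1, which adds PCDHGB7 and PCDHGA7, where 25.1% of all genes compared were lower. It was 2 with a minimum of 5 TPM, a fold of 4 and quantile normalization, where 17.4%, 6.06% and 14.1% of genes were lower. It was 3 with no filter and with median-ratio scaling, where 6.003% and 14.6% were lower. With a pseudocount of 0.1 and a minimum of 0.1 TPM together, an alternative chosen after seeing the data, 14 members were lower and 1 was higher among 22 compared, beside 27.5% and 17.2% of all 27389 genes compared. That PCDHG and PCDHA ratios depend on the pseudocount follows from its construction, since it is large beside low values: with 0.1 the log2 ratio of the PCDHG sum was -4.62 and that of the PCDHA sum was -1.85, against -3.82 and -0.37. The PCDHG sum without its most abundant member, PCDHGC3, gave -2.69. Under the other alternatives the PCDHG sum stayed lower in si-FTO, within a range over all alternatives of -4.62 to -2.69, while the PCDHB sum ranged from -0.12 to 0.52. For the PCDHA and PCDHB sums, restriction to members of at least 0.5 TPM left no members and gave no value. Over all genes compared, the median log2 ratio stood at -0.20, and it was -0.05 after median-ratio scaling and -0.03 after quantile normalization, a shift that is small beside the ratio of the PCDHG sum but not beside the median of -0.20 over the 22 gamma genes. No paired analysis was possible because the table holds 1 mean per group, and leaving out each replicate was not run for the same reason.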

Other observations

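CpG dinucleotides in the promoter window were counted with 1 start site per gene, the first or the last listed. The median was 7 for 13 alpha genes, 7.5 for 14 beta genes and 7 for 20 gamma genes. With all 25 gamma start sites counted, the gamma median was 10. Over all 35116 promoters the median was 14. Among the gamma genes above 0.5 TPM in si-NC, PCDHGC4 had 23 and 24 CpG dinucleotides at its listed start sites. PCDHGC3 had 18, PCDHGA11 had 12, PCDHGB7 had 11 and PCDHGA7 had 6. The relation of these counts to expression was not tested.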
